A study of Manis javanica with 3 samples.

Results

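Cytosolic ribosomal proteins are the protein components of the ribosomes that translate nuclear-encoded mRNAs. The genes described here were those whose best match in the NR protein database was named a 60S, a 40S or a 60S acidic ribosomal protein, leaving out kinases and mitochondrial proteins, and they numbered 104 of the 24220 genes measured. Poly(A) RNA came from liver, salivary gland and a tissue labelled small intestine of 1 adult female Malayan pangolin (Manis javanica), which was of wild origin and did not survive its rescue, so its tissues may differ from those of a healthy animal. Each tissue gave 1 library, and the labels name no treatment. The estimated counts summed to 10158924 in the library labelled small intestine, 8318686 in salivary glands and 14568778 in liver. No value below has a replicate check, so all comparisons describe these 3 libraries of 1 animal, and intervals cover counting error only.

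The tissue labels were checked against marker genes first. In liver, all 11 genes named as hepatocyte markers had an FPKM above 1 (FPKM being a level deposited by the authors that is meant to allow for gene length and library depth), their sum was 51536, and haptoglobin (HP) was the most abundant at 25755. In salivary glands, 4 of 11 genes of the salivary list passed that level with a sum of 310, led by cystatin C (CST3) at 186. CST3 did not set salivary glands apart, as it stood at 200 in the intestine-labelled library, where the list summed to 206, and at 54.7 in liver, where it summed to 85.6. The water channel AQP5 stood at 94.3 in salivary glands against 2.29 and 24.7 in the intestine-labelled and liver libraries. The library labelled small intestine went against its label. Only 4 of its 19 genes named as enterocyte markers were above 1, with a sum of 49.0 led by villin (VIL1) at 24.0, while FABP1, FABP2, LCT and CDX1 were at 0. The enterocyte list summed to 51.6 in salivary glands, with 3 genes above 1, and to 152 in liver, with 6 genes above 1 led by a gene matched to sucrase-isomaltase (SI, gene10946) at 114, so it was highest in the library labelled liver. Of the 14 genes named as gastric markers, 10 were above 1 in the intestine-labelled library, with a sum of 117906 led by pepsinogen A (PGA) at 94138, and the acid pump subunit ATP4A stood at 1073. The gastric sum was 92.0 in salivary glands and 3.03 in liver. The part of this mismatch in the results below was not tested. The sample is therefore called the library labelled small intestine, or intestine-labelled library, throughout, and the comparison of salivary glands with liver does not rest on it.

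Each ribosome joins a small 40S subunit, which holds the mRNA and reads its codons, to a large 60S subunit, which forms the peptide bond and feeds the new chain into the exit tunnel. Most of their proteins are needed in equal copy number, and their mRNAs share a pyrimidine tract at the start (the TOP motif) through which mTOR signalling sets how well they are translated. Secretory glands and liver both make large amounts of exported protein and so depend on many ribosomes. In the genome of a mammal the intron-bearing source genes are accompanied by many intronless processed copies.

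The 104 genes divided into 67 of the 60S subunit and 37 of the 40S subunit, and they named 79 different proteins. Of the 79 standard proteins of a mammalian ribosome, 72 had a gene among them, which were 44 of 47 large-subunit and 28 of 32 small-subunit proteins. The other 7 proteins named were paralogs, that is, genes named after a standard protein they resemble, such as RPL3L or RPS27L. For 59 proteins there was 1 gene and for 20 there were more. Of the 104 genes, 87 had a mean count of at least 10 over the libraries and were used for folds, and 13 had no count in any library. The remaining 4 were new genes with few counts, named RPL10A (14, 9 and 0 counts in the intestine-labelled, salivary and liver libraries), RPL12 (0, 0 and 1), RPL31 (6, 3 and 15) and RPL3L (6, 7 and 16). Summed over its copies, each of 71 standard proteins passed the same count minimum, and the exception, RPL36A, is described among the copies below.

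The family took a large share of every library. Its share of the counts was 3.52% (95% Wilson interval 3.51 to 3.54) in the intestine-labelled library, 5.24% (5.22 to 5.25) in salivary glands and 2.62% (2.61 to 2.62) in liver. The share was thus highest in salivary glands and lowest in liver. Ribosomal protein genes are short, with a median length of 662 bases for the leading genes of standard proteins against 2251 bases for all genes, and their share of the summed FPKM was larger at 11.3%, 13.2% and 7.95% in the same order. Among the 100 genes with the highest FPKM, 52 belonged to the family in the intestine-labelled library, 59 in salivary glands and 32 in liver. These shares depend on what else fills a library. The 10 most abundant genes held 43.3% of the counts in the intestine-labelled library, 23.1% in salivary glands and 16.1% in liver, led in counts by BPIFB1, the latherin gene LATH and the fibrinogen gene FGA. With those 10 genes left out of each total the family's shares of counts became 6.22%, 6.81% and 3.12%. Fewer cells of a type and less RNA per cell cannot be told apart in tissue RNA.

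**Figure D1:**
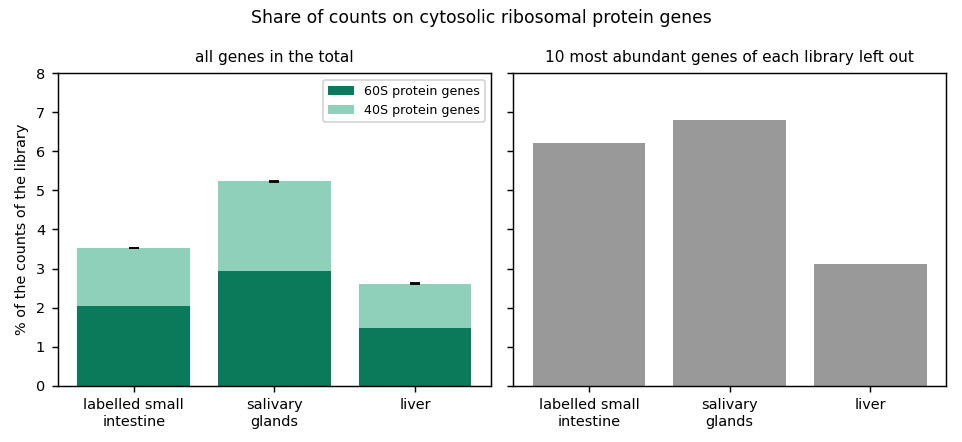
Share of the counts of each library on cytosolic ribosomal protein genes, in percent, as stacked bars for the 60S and 40S genes with the 95% Wilson interval of the sum (left) and with the 10 most abundant genes of each library left out of the total (right). Salivary glands stand highest and liver lowest in both panels, at 5.24% and 2.62% on the left and at 6.81% and 3.12% on the right.

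Levels of single proteins, copies summed, were compared by FPKM, which is per length. The deposited FPKM is not simply the count over length and depth. For ribosomal protein genes with at least 100 counts, FPKM over that quotient had a median of 1.496 in the intestine-labelled library, 1.07 in salivary glands and 1.36 in liver, and over all such genes the medians were 1.30, 0.904 and 1.16. An FPKM ratio of salivary glands to the intestine-labelled library is thus typically 0.716 of the ratio of counts per depth for these genes, and for salivary glands to liver it is 0.788. The cause was not tested, so FPKM below serves for levels within a library and scaled counts for folds between libraries. Over the 71 standard proteins the median FPKM was 934 in the intestine-labelled library, 897 in salivary glands and 549 in liver, where the median over all genes was 2.16, 1.76 and 1.89. All 71 lay above 100 in each library, and 30, 26 and 11 of them lay above 1000. Although a ribosome holds its proteins in near equal numbers, their FPKM values spread widely. The range was 10.3-fold in the intestine-labelled library (RPL8 at 390 to RPLP1 at 4022) and 10.9-fold in salivary glands (RPS10 at 436 to RPSA at 4738). In liver it was 16.6-fold (RPS10 at 139 to RPS29 at 2305). The part of the variation in FPKM over the quotient in these ranges was not tested. The levels of the proteins were much alike between libraries by the Pearson correlation of log2(FPKM + 1) over these 71 proteins. It was 0.92 between salivary glands and the intestine-labelled library, 0.84 between the latter and liver, and 0.82 between salivary glands and liver. Over all 24220 genes the same correlations were 0.88, 0.78 and 0.80. The Spearman correlations, which use ranks, were 0.91, 0.82 and 0.80 over the 71 proteins and 0.88, 0.80 and 0.82 over all genes. By ranks the proteins were thus no more alike than all genes between salivary glands and liver. Proteins are not replicates, and the libraries share the gene models and lengths, so these values only describe how alike the levels and their order are. The paper gives salivary glands and small intestine as its least similar pair by log-scaled FPKM, whereas that pair had the highest correlation here. Why they differ was not tested. By FPKM, liver was the lowest of the 3 libraries for 62 of 71 proteins and the highest for none, the intestine-labelled library was the highest for 41 and salivary glands for 30. By TMM-scaled counts, explained with the folds below, the highest library was the intestine-labelled one for 25 proteins, salivary glands for 42 and liver for 4, so which of the former 2 leads depends on the scale, while liver was lowest for 64 proteins by these counts too.

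**Figure D2:**
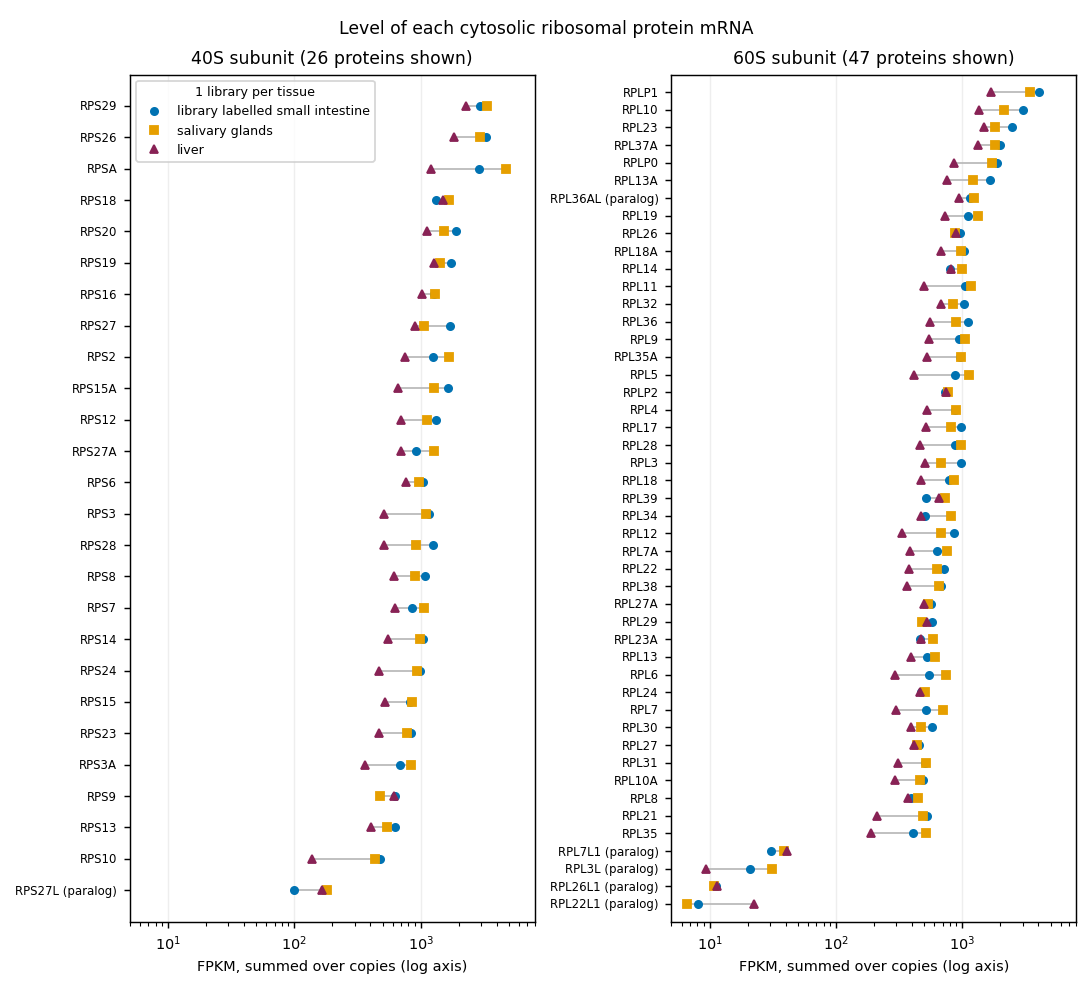
FPKM of each ribosomal protein, summed over its copies, on a log axis in the 3 libraries, for 26 of the 29 proteins of the 40S subunit (left) and 47 of the 48 of the 60S subunit (right) that passed the count minimum, paralogs marked and 4 proteins not drawn. Liver (triangles) is the lowest of the 3 for most standard proteins, and 4 paralogs of the 60S subunit lie far below every standard protein.

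Small-subunit proteins had the higher typical level by FPKM. The median FPKM of 28 proteins of the 40S subunit was 1209, 1085 and 687 in the intestine-labelled, salivary and liver libraries, against 807, 813 and 502 for 43 proteins of the 60S subunit. The ratio of these medians was 1.499, 1.33 and 1.37. The summed FPKM of the small subunit was 0.882, 0.933 and 0.893 of that of the large subunit, which has more proteins, so the balance of both subunits was close to the same in the 3 libraries. Among the 5 proteins with the highest levels were 3 of the 40S subunit. RPS29, a small zinc-binding protein of the 40S head, had an FPKM of 2975 in the intestine-labelled library, 3381 in salivary glands and 2305 in liver. RPS26, which lies where mRNA leaves the subunit, stood at 3311, 2954 and 1823 in the same order. RPSA, also known as the laminin receptor, stood at 2894, 4738 and 1203. Liver was lowest for each of these proteins, and RPSA had by far the widest gap between libraries.

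Folds between libraries were taken as log2 ratios of counts scaled by TMM, a method that sets the bulk of genes equal, and a gene was counted as higher or lower when it differed by 2-fold or more, a log2 fold of 1. Against liver, the intestine-labelled library had 16 of 87 ribosomal protein genes higher, where 23.3% of all 16411 genes with enough counts were higher, and 3 lower, where 22.2% of all genes were. Together 19 of 87 genes passed 2-fold, against 45.5% of all genes. Among the 16 is a new gene like RPL21 with 1 count against 0, which had enough counts only through salivary glands and shows no difference here, so 15 higher genes have more than 3 counts in either library. The share past 2-fold was thus below that of all genes, while 76 of 87 genes lay above 0 against 48.5% of all genes. This split depends on the scaling, since with library size 62 genes lay above 0 and 25 below, and 6 were higher and 4 lower by 2-fold where 20.5% and 27.5% of all genes were. With copies summed, 65 of the 71 standard proteins lay above 0, 13 were higher by 2-fold and 0 lower, and the median log2 fold was 0.69, or 1.62-fold, where the median over all genes was -0.05. Counting intervals lay wholly above 0 for 63 proteins and wholly below for 5.

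Salivary glands against liver does not involve the intestine-labelled library. In that comparison 21 of 87 genes were higher, against 22.4% of all genes, and 3 were lower, against 22.6%. Among the 21 is the new gene like RPL21 with 31 counts against 0 (log2 fold 6.57), which passed the count minimum only through salivary glands. The 24 genes past 2-fold in either direction compare with 45% of all genes. Here 79 of the 87 genes lay above 0, where 49% of all genes did. With library size scaling 82 lay above 0, and 36 were higher and 2 lower by 2-fold where 26.4% and 19.2% of all genes were. Of the 71 standard proteins 66 lay above 0, 18 were higher by 2-fold and 0 lower, and the median log2 fold was 0.73, or 1.66-fold, against -0.03 over all genes. Summed over all standard proteins, counts were 1.73-fold those of liver in salivary glands and 1.60-fold in the intestine-labelled library. Both comparisons share the liver library, so they are not independent of each other.

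Salivary glands against the intestine-labelled library gave 2 of 87 genes higher, against 15.6% of all genes, and 0 lower, against 19.1%, or 2 in either direction against 34.7% of all genes. Here 56 of the 87 genes lay above 0 with TMM, where 50.1% of all genes did, and 85 with library size scaling, which put 11 higher and 0 lower by 2-fold. The median log2 fold of the member genes was 0.08 with TMM scaling, 0.11 with upper quartile scaling, 0.07 with median-of-ratios scaling and 0.54 with scaling by library size, so that the family was near equal in both libraries under the former 3 settings and higher in salivary glands under the last. Scaling by library size moved the median of all genes to 0.46 in this comparison, with 27.3% of all genes higher and 14.1% lower by 2-fold, to -0.29 for the intestine-labelled library against liver and to 0.19 for salivary glands against liver. Since a scaling adds the same amount to every gene, the family's distance from the median of all genes stayed at 0.08, 0.68 and 0.73 in these comparisons. Against liver the family's median lay above 0 under every scaling, at 0.39 for the intestine-labelled library and 0.92 for salivary glands with library size. Both genes past 2-fold in salivary glands were minor ones, the new gene like RPL21 with 31 counts in salivary glands against 1 (log2 fold 4.22, interval 2.20 to 10.13), which passed the count minimum only through salivary glands, and the RPS27L gene described below.

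**Figure D3:**
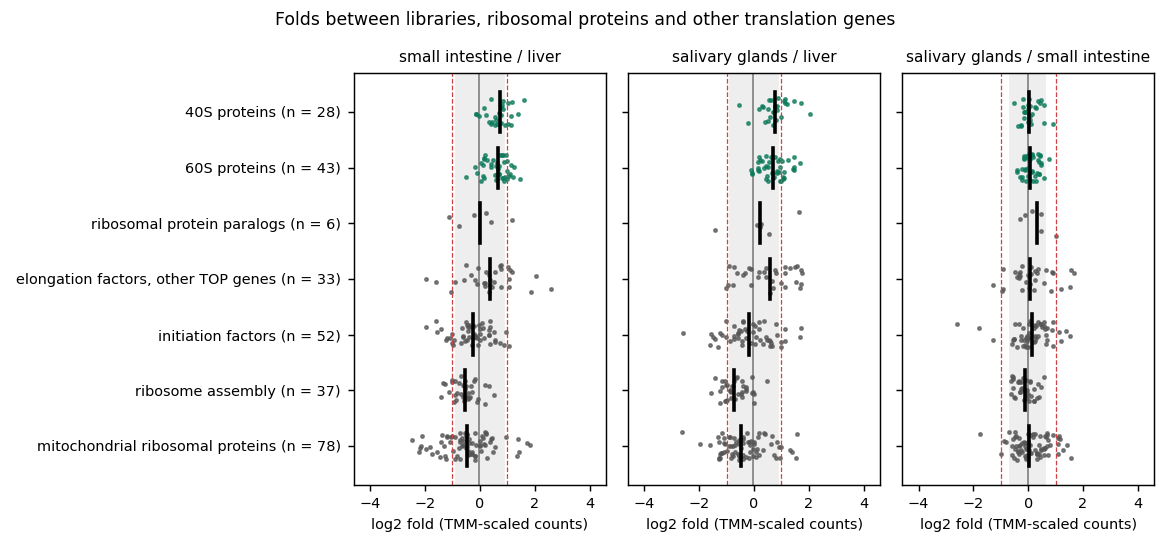
Log2 folds of TMM-scaled counts for proteins of the 40S and 60S subunits and paralogs (copies summed) and for genes of other translation lists, in the 3 pairs of libraries, with the median of each set as a black bar, the middle 50% of all genes in grey and the 2-fold limits dashed. Against liver the medians of both subunits lie between 0.66 and 0.75, while the medians of ribosome assembly genes are -0.54 and -0.72; with scaling by library size every point in the right panel moves 0.46 to the right.

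Both subunits took part alike. The median log2 fold against liver in the intestine-labelled library was 0.74 over 28 proteins of the 40S subunit and 0.66 over 43 of the 60S subunit. In salivary glands the corresponding medians were 0.75 and 0.70. Individual proteins departed from these medians in ways described next, by subunit and role.

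In the small subunit, RPSA and RPS10 stood farthest above the family in salivary glands against liver, and RPS10 and RPS15A did in the intestine-labelled library against liver. RPSA had 15193, 31534 and 11682 counts in the intestine-labelled, salivary and liver libraries, and its log2 fold was 2.02 (1.99 to 2.05) in salivary glands against liver, 1.14 (1.10 to 1.17) in the intestine-labelled library against liver, and 0.88 (0.86 to 0.91) between salivary glands and the intestine-labelled library. Salivary glands were thus highest and liver lowest for RPSA, with a 4.06-fold difference between them. RPS10, which lies near the mRNA entry and is ubiquitinated when ribosomes collide, had an FPKM of 479, 436 and 139. Its log2 fold against liver was 1.63 (1.53 to 1.72) in the intestine-labelled library and 1.70 (1.61 to 1.80) in salivary glands, so liver alone was low. RPS15A had an FPKM of 1640, 1288 and 658, with log2 folds against liver of 1.38 and 1.13.

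Not every protein of the small subunit shared the family's lower level in liver. RPS9, which lines the mRNA entry channel, had an FPKM of 627 in the intestine-labelled library, 476 in salivary glands and 617 in liver, and its log2 fold against liver was -0.15 (-0.21 to -0.10) and -0.53 (-0.59 to -0.48). For RPS9 salivary glands were the lowest library by FPKM. Between salivary glands and the intestine-labelled library, RPS2, which also lies at the mRNA entry, stood at the upper end with FPKM values of 1689 and 1261 and a log2 fold of 0.58 (0.54 to 0.62). The zinc-finger protein RPS27 stood at the lower end with 1066 and 1720 and a log2 fold of -0.51 (-0.55 to -0.46), which scaling by library size brings close to 0.

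Members of the small subunit known for regulation or for other roles lay nearer to the family. RPS6, the substrate of the S6 kinases, had an FPKM of 1038, 979 and 768 in the intestine-labelled, salivary and liver libraries. Its log2 fold was 0.56 and 0.54 against liver. RPS3, a protein of the mRNA entry that also takes part in DNA repair, had an FPKM of 1164, 1101 and 513, with log2 folds of 1.04 and 1.09. Both were lowest in liver and near equal in the other libraries.

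**Figure D4:**
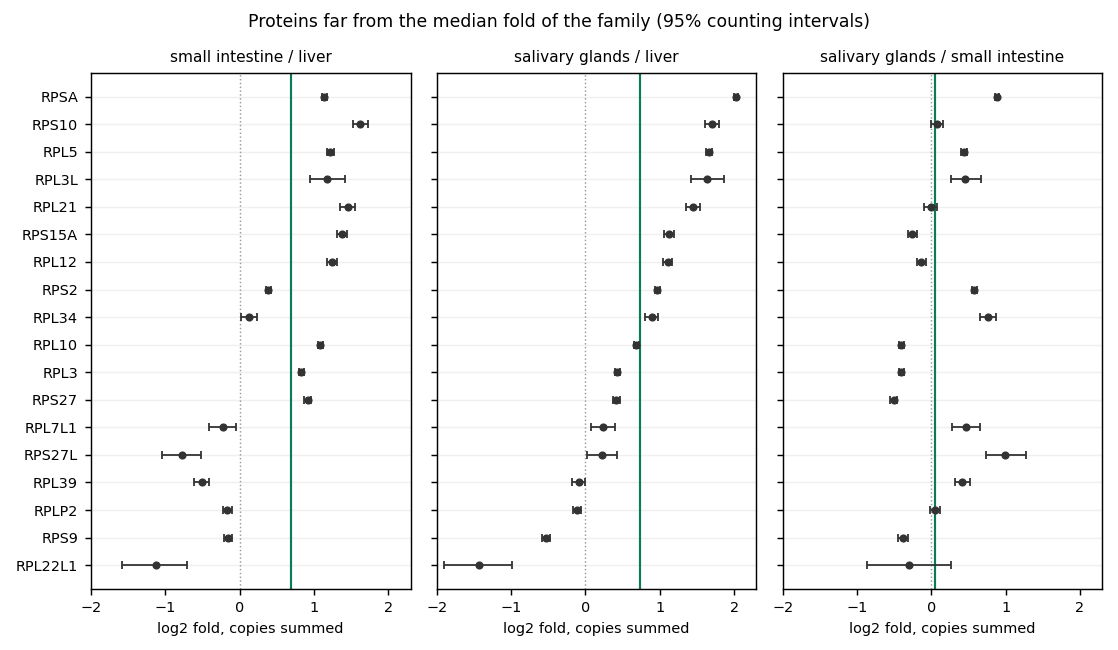
Log2 folds of TMM-scaled counts (copies summed) with 95% exact counting intervals for most of the proteins that lie farthest from the family in any of the 3 pairs of libraries, with the family's median as a green line and 0 dotted. RPSA and RPS10 lie right of the family against liver, and RPS9 and RPLP2 lie left of it; in the right panel scaling by library size moves every point 0.46 to the right.

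In the large subunit, RPL5 and RPL11, which bind the 5S rRNA and can carry it to the p53 regulator MDM2, were both above the family's median. RPL5 had an FPKM of 883, 1139 and 417, and its log2 fold against liver was 1.22 (1.17 to 1.27) in the intestine-labelled library and 1.66 (1.62 to 1.71) in salivary glands. RPL11 had an FPKM of 1054, 1183 and 502, with log2 folds of 1.06 and 1.24. Liver was lowest and salivary glands highest for both. RPL21 stood at 522, 491 and 210, with log2 folds against liver of 1.45 in the intestine-labelled library and 1.44 in salivary glands. RPL12, at the base of the stalk, stood at 863, 673 and 335, with log2 folds of 1.24 and 1.10.

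RPL10, a late-joining protein close to the peptidyl transferase centre, was among the 5 most abundant at 3029 in the intestine-labelled library, 2124 in salivary glands and 1359 in liver. Its log2 fold between salivary glands and the intestine-labelled library was -0.40 (-0.43 to -0.37), and that of RPL3, which shapes the peptidyl transferase centre, was -0.40 (-0.44 to -0.36) with FPKM values of 685 and 979. Scaling by library size, which adds 0.46, would place both at about 0. RPL34 went the other way, with an FPKM of 821 in salivary glands against 505 in the intestine-labelled library and 474 in liver and a log2 fold of 0.76 (0.66 to 0.87) between the former 2. RPL13A, which also takes part in a translational silencing complex in inflammation, had an FPKM of 1654, 1217 and 752 in the intestine-labelled, salivary and liver libraries. RPL38, needed for translation of Hox mRNAs in mouse embryos, had an FPKM of 682, 652 and 363. Both were lowest in liver, with log2 folds against it of 0.96 and 0.66 for RPL13A and 0.86 and 0.90 for RPL38.

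The stalk, which recruits elongation factors to the large subunit, is built from RPLP0 and dimers of RPLP1 and RPLP2, and its members differed from each other. RPLP1 had an FPKM of 4022, 3434 and 1677 and RPLP0 of 1890, 1734 and 860 in the intestine-labelled, salivary and liver libraries. RPLP2 had an FPKM of 732, 764 and 750. Liver was thus lowest for RPLP1 and RPLP0, while RPLP2 was near level over all 3 libraries. The log2 folds against liver in the intestine-labelled and salivary libraries were 1.13 and 0.996 for RPLP1 and 0.98 and 1.06 for RPLP0. For RPLP2 they were -0.17 (-0.23 to -0.11) and -0.11 (-0.17 to -0.06). The exit-tunnel protein RPL39, with 4 genes, had summed log2 folds against liver of -0.51 (-0.61 to -0.41) and -0.09 (-0.18 to -0.01), and these turned on 1 copy, as given below.

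RPS27A, made as a fusion that yields ubiquitin and a 40S protein, was at a typical level. Its FPKM was 916 in the intestine-labelled library, 1270 in salivary glands and 700 in liver, with log2 folds against liver of 0.54 and 1.11. It was highest in salivary glands and lowest in liver. FAU, the fusion with a ubiquitin-like protein, had no gene within the annotation rule.

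The paralogs spanned the widest range of levels. RPL36AL, an intron-bearing relative of RPL36A, had an FPKM of 1155, 1228 and 938 in the intestine-labelled, salivary and liver libraries, as high as a standard protein. RPS27L, a target of p53 in other mammals, stood at 99.7, 181 and 167, summed over 3 genes. RPL7L1, a factor of large-subunit assembly in spite of its name, stood at 30.5, 38.9 and 41.3. These levels place RPS27L and RPL7L1 below the median of the standard proteins in each library. RPL3L, known as the striated muscle form of RPL3, stood at 21.0, 31.3 and 9.31. RPL26L1 stood at 11.3, 10.8 and 11.5 and RPL22L1 at 8.06, 6.68 and 22.4. RPL10L, known from testis, had no count in any library.

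Several paralogs departed from the direction of the family against liver. RPL22L1 had log2 folds of -1.13 (-1.58 to -0.71) in the intestine-labelled library and -1.43 (-1.90 to -0.99) in salivary glands, so it was highest in liver. The log2 folds of its standard relative RPL22 were 0.74 and 0.85, lowest in liver. RPS27L was lowest in the intestine-labelled library, with log2 folds of -0.77 (-1.04 to -0.51) against liver and 0.996 (0.73 to 1.28) for salivary glands against the intestine-labelled library. RPL7L1 had log2 folds against liver of -0.22 (-0.41 to -0.05) and 0.24 (0.08 to 0.39). RPL3L had log2 folds of 1.18 (0.94 to 1.42) and 1.64 (1.42 to 1.86) from 339, 524 and 253 counts. As skeletal muscle can come along with dissected tissue, muscle markers were read beside RPL3L. Of 7 genes named as muscle markers, 2 were above an FPKM of 1 in the intestine-labelled library (sum 27.6, led by CKM at 24.8), 2 in salivary glands (sum 30.5, led by ACTA1 at 26.8) and 0 in liver (sum 0.196), and MYH1 and MYH2 were at 0 in the intestine-labelled and liver libraries. The part of muscle in the RPL3L values was not tested.

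Copies of a protein are reported as uncertain, because reads of near-identical genes can be split between them and the counting tool is not given in the sources used here. Of the 25 second and further copies of a protein, 11 were at 0 in every library and only 6 held more than 5% of their protein's mean FPKM. Thus a single gene carried nearly all of the signal for most proteins with more than 1 gene, and in no pair of copies did the order of FPKM change between libraries. Gene models whose span on the scaffold equals their length have no intron. There were 9 such genes in the family, of which 8 had no count in any library, while of the 95 genes with a longer span 5 had none. Over all genes, 1205 had a span equal to their length and 64.1% of these had no count in any library, against 13.0% of all genes. The silent intronless genes included copies of RPL23A, RPL30, RPL37A, RPL39 and RPS27L together with RPL10L and the only gene named RPL36A within the rule. The 5 silent genes with a longer span were copies of RPL32, RPL7, RPL9, RPS20 and RPS26.

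**Figure D5:**
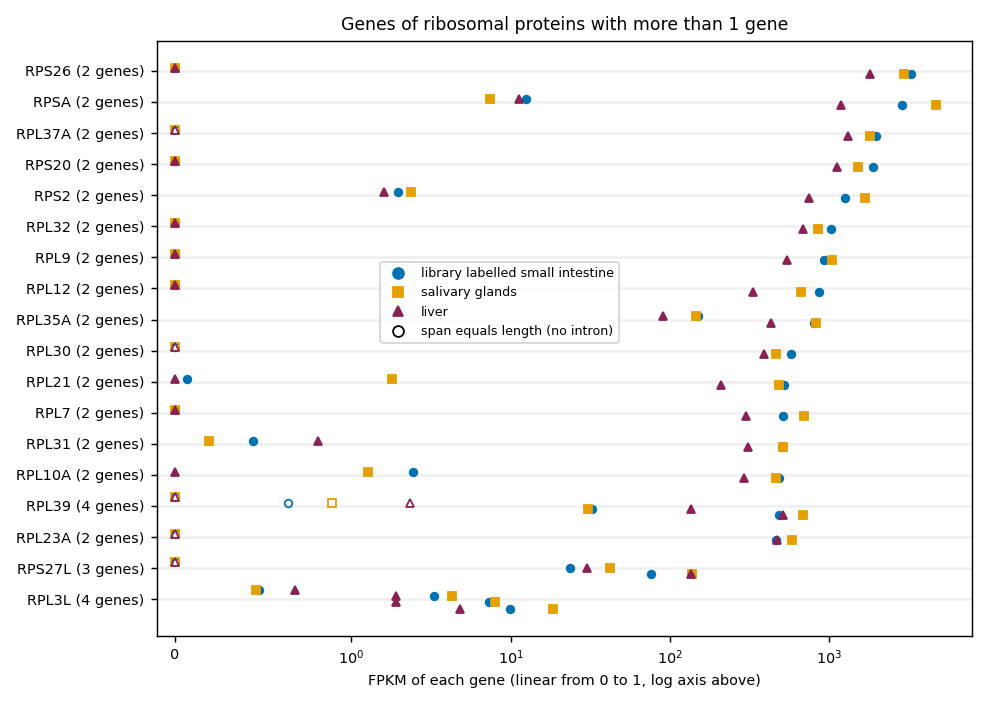
FPKM of every gene of 18 of the 20 ribosomal proteins with more than 1 gene, in the 3 libraries, on an axis that is linear from 0 to 1 and logarithmic above; open symbols mark genes whose span equals their length. Most proteins have 1 gene far to the right and further genes at or near 0, while RPL35A, RPL39, RPS27L and RPL3L have further genes that hold over 5% of the protein's mean FPKM.

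Copies of RPL35A shared the signal and kept similar folds. RPL35A was carried by gene22369 with an FPKM of 809, 828 and 435 and by gene9875 with 151, 146 and 90.6 in the intestine-labelled, salivary and liver libraries. The log2 folds against liver were 0.82 and 0.97 for gene22369 and 0.77 and 0.85 for gene9875. Each copy was lowest in liver.

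In RPL39 the copies differed. Its leading gene27077 had an FPKM of 485, 692 and 519 in the intestine-labelled, salivary and liver libraries, with log2 folds against liver of 0.03 (-0.09 to 0.14) and 0.57 (0.47 to 0.67). The longer gene22766 had 32.4, 30.7 and 136, with log2 folds of -1.69 (-1.90 to -1.49) and -1.98 (-2.20 to -1.77). The leading gene was thus highest in salivary glands, whereas gene22766 was more than 3-fold higher in liver than in either other library, and its 1248 liver counts put the summed folds of RPL39 below 0. The intronless gene26427 had 5, 9 and 32 counts, also most in liver.

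RPSA, RPS26 and RPS27L also had further genes. RPSA's gene26355 held 15151, 31502 and 11614 of its counts, and the other, a new gene with 42, 32 and 68 counts, held the rest. The log2 fold in salivary glands against liver was 2.03 (interval from 1.999 to 2.06) for gene26355 and -0.49 (-1.15 to 0.13) for the new gene, so these copies also differed. RPS26 came from gene24917 alone, as the second gene had no count. RPS27L was carried by gene10170 with an FPKM of 76.0, 139 and 136 and a new gene with 23.7, 42.2 and 30.4, both lowest in the intestine-labelled library. The log2 fold of gene10170 between salivary glands and the intestine-labelled library was 1.01 (0.67 to 1.36). RPL3L had gene26516 with an FPKM of 9.87, 18.6 and 4.84 and 3 new genes that overlap or adjoin one another on another scaffold, whose reads therefore cannot be assigned with certainty. In salivary glands against liver the log2 folds of those RPL3L genes with enough counts were 1.83 (1.48 to 2.20) for gene26516 and 2.01 (1.66 to 2.39) and 0.75 (0.22 to 1.29) for the new ones.

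Few members lay near each other. RPS29 and RPL36AL lay 32029 bases apart on a scaffold, with 1 protein-coding gene between them in the RefSeq annotation of assembly MJ_LKY. Their log2 folds against liver were 0.15 and 0.50 for RPS29 and 0.39 and 0.54 for RPL36AL. Of the 79 protein symbols used here, 78 were found in that annotation.

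Other lists of the translation machinery were set beside the family and read against all genes. The lists overlap, so their medians do not come from separate genes. EIF2S3, EIF3E, EIF3F, EIF3H, EIF3K, EIF3L and EIF4A2 stand in both the TOP and the initiation lists. NPM1 stands in the TOP and assembly lists, and EIF6 in the assembly and initiation lists. Of all genes 23.3% were higher and 22.2% lower by 2-fold in the intestine-labelled library against liver, 22.4% and 22.6% in salivary glands against liver, and 15.6% and 19.1% in salivary glands against the intestine-labelled library. Genes of elongation factors and other TOP mRNAs numbered 33 with enough counts. Their median log2 fold against liver was 0.36 in the intestine-labelled library, with 8 higher and 3 lower by 2-fold, and 0.60 in salivary glands, with 11 higher and 1 lower. The part higher was near that of all genes in the former and above it in the latter, and the part lower was below it in both. With scaling by library size the medians were 0.12 in the intestine-labelled library and 0.81 in salivary glands. EEF1A1, which brings aminoacyl-tRNAs to the ribosome, had an FPKM of 5138, 5001 and 2393 in the intestine-labelled, salivary and liver libraries, and TPT1 had 2763, 2046 and 1635. Both were lowest in liver, as most ribosomal proteins were. Among genes of lower level, gene9853 named EIF2S3 had 41.7, 75.9 and 181 and gene14018 named HNRNPA1 had 18.5, 12.2 and 6.33.

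Genes for ribosome assembly had medians on the other side of 0. Of 37 such genes, 33 lay below 0 in the intestine-labelled library against liver and 36 did in salivary glands against liver, with medians of -0.54 and -0.72, and 0 were higher and 6 and 10 lower by 2-fold. The part lower by 2-fold was below that of all genes in the former comparison and somewhat above it in the latter, so the list differed from all genes by its common direction and the lack of higher genes. With scaling by library size these medians were -0.78 and -0.50, so the direction against liver held. Nucleophosmin (NPM1) had an FPKM of 204, 155 and 302 and nucleolin (NCL) 179, 143 and 304 in the intestine-labelled, salivary and liver libraries. RRS1, which brings the 5S rRNA particle into the large subunit, had 18.6, 15.9 and 47.6, and LSG1, a GTPase of late large-subunit maturation, had 5.72, 3.48 and 11.4. Each of these genes was highest in liver, where most ribosomal protein mRNAs were lowest. Between salivary glands and the intestine-labelled library the median was -0.12 with TMM and 0.33 with library size scaling, with 0 genes past 2-fold with TMM.

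Mitochondrial ribosomal proteins had medians below 0 against liver, where the cytosolic ones had medians above 0. Of 78 genes, 5 were higher and 20 lower in the intestine-labelled library against liver, with a median of -0.47, and 4 were higher and 17 lower in salivary glands against liver, with a median of -0.49. The parts lower by 2-fold were near those of all genes, and the parts higher were below them. MRPL32 had an FPKM of 51.3, 36.5 and 86.1 and MRPS15 36.1, 48.9 and 87.9. MRPL50 with 12.3, 8.69 and 61.7 and MRPL33 with 7.27, 9.58 and 44.5 had the largest folds among those with an FPKM above 1 in all 3 libraries. These 4 were highest in liver. Between salivary glands and the intestine-labelled library 8 were higher and 1 lower, and the median was 0.04 with TMM and 0.50 with library size scaling.

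Initiation factors were mixed. Of 52 genes, 1 was higher and 9 lower in the intestine-labelled library against liver, with a median of -0.24. In salivary glands against liver 4 were higher and 10 lower, and the median was -0.19 with TMM but 0.03 with library size scaling. In both comparisons the parts past 2-fold were below those of all genes in either direction. EIF1, which guards start codon choice, had an FPKM of 673, 639 and 873, and the helicase EIF4A1 had 199, 127 and 398. Both were highest in liver, while EIF3F, a subunit of the scaffold eIF3 and a TOP mRNA, had 148, 217 and 67.4 and was lowest there. Between salivary glands and the intestine-labelled library 4 were higher and 3 lower, with a median of 0.14.

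The list of kinases and binding proteins of growth control held 18 genes with enough counts. In salivary glands 7 were higher and 2 lower than in liver, with a median of 0.72, and in the intestine-labelled library 3 were higher and 0 lower, with a median of 0.16 with TMM and -0.08 with library size scaling. PDCD4, an inhibitor of the helicase eIF4A that S6 kinase marks for degradation, had an FPKM of 475 in salivary glands against 31.6 in the intestine-labelled library and 39.2 in liver, the widest gap in the list among genes with an FPKM above 1 in all 3 libraries. A gene matched to the kinase RPS6KA5 (gene15375) had a wider one, with 16.9, 3.72 and 0.323 in the intestine-labelled, salivary and liver libraries. Of the genes matched to the cap-binding inhibitor EIF4EBP1, gene19885 had 13.4, 69.2 and 18.5 in the intestine-labelled, salivary and liver libraries and gene4430 had 34.2, 115 and 49.4. Both were highest in salivary glands by FPKM, but by scaled counts the log2 fold in salivary glands against liver was 1.96 for gene19885 and only 0.03 for gene4430. Salivary glands against the intestine-labelled library gave 4 higher and 2 lower in this list, with a median of 0.21, and 4 higher and 1 lower in the list of elongation factors and TOP mRNAs, with a median of 0.07.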

How the data were processed

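The authors purified mRNA with poly-T beads, sequenced paired ends on a HiSeq instrument of Illumina and aligned them by TopHat2, without strand information, to a pangolin genome whose build is not given in the sources used here. New genes outside the annotation were joined with Cufflinks. The deposited FPKM is a value of the authors, who describe it as the count over length and depth and elsewhere name RSEM for it, yet it differs from that quotient by a factor that varies with gene and library. The deposited counts are whole numbers, taken here as estimated counts, and the tool that made them is not given in the sources used here. A deposited score, read only to check the counts, was divided by 1 factor per library. The result lay within 1 below the count (tolerance 0.01) for 99.6%, 99.6% and 98.6% of values in the intestine-labelled, salivary and liver libraries. It lay 1 below for 28.4%, 29.1% and 28.9%, which rounding up alone does not give. Transcripts were annotated by the authors with BLASTX against NR, Swiss-Prot and KEGG.

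Members were found in the NR entry, and each protein was named by Swiss-Prot or, failing that, by the product name. An NR name with the ending "-like 1" came first, however. RPL26L1 is so named by its NR entry, while its Swiss-Prot symbol is RPL26. Counts were scaled by TMM (edgeR 4.0.16, R 4.3.3) on the whole table, with 0.5 added to each count before scaling. Genes with a mean count of at least 10 over the 3 libraries entered folds. With 1 library per tissue no test was run. Shares have 95% Wilson intervals and folds 95% exact (Clopper-Pearson) counting intervals. A count of 0 allows up to 3 counts, which is a CPM (counts scaled to equal depth) of 0.295, 0.361 and 0.206 in the intestine-labelled, salivary and liver libraries. Values were computed in Python 3.11.15 with pandas 2.3.3, numpy 2.4.6, scipy 1.17.1 and matplotlib 3.10.9.

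Proteins were named in the text by rule, though some that the rule selects are not reported here: the 5 highest and 5 lowest in level, the 4 farthest above and the 4 farthest below the family's median in each pair of libraries, the 5 with most genes, the stalk, RPS27A and FAU, the paralogs and RPS6, RPS3, RPSA, RPL5, RPL11, RPL13A, RPL38 and RPL41. Of each further list, the 2 most abundant genes and the 2 with the largest fold among genes with an FPKM above 1 in all 3 libraries were named. RPL22, RPL35A, RPS6KA5 and the new gene like RPL21 were named after their values were seen. Initiation factors were genes whose symbol starts with EIF, leaving out EIF4EBP. Symbols can stand for a paralog. The members and lists were chosen with earlier results of these data known. Lymphocyte, erythroid and pancreatic markers were also read: their summed FPKM was 12.2, 14.0 and 55.5 for lymphocytes, 4.06, 1.40 and 1.30 for erythroid cells and 42.3, 13.0 and 23.0 for pancreas in the intestine-labelled, salivary and liver libraries. Alternatives tried were other scalings, thresholds, count minimums, pseudocounts, member definitions and totals.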

Additional observations from a re-analysis of the deposited data

Results flagged for a closer look

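Signals from ribosomal protein genes also appeared outside the genes the NR names select. These are genes that the Swiss-Prot or KEGG entry names as a ribosomal protein while the NR entry does not use the words of the rule. Only those with an FPKM above 1 in all 3 libraries are described. They account for 6 of the 7 standard proteins without a member, RPL41 being the exception. A further gene named FAU, gene13985, did not pass. It had 10, 70 and 19 counts and an FPKM of 0.603, 4.29 and 0.617 in the intestine-labelled, salivary and liver libraries. The highest FPKM over the 3 libraries was 375 for gene2910 (RPL15), 1133 for gene19057 (RPL37), 800.05 for gene10321 (RPS4X), 630 for gene10838 (RPS21), 1026 for gene3311 (RPS25) and 866 for gene8289 (FAU). Each of these was lowest in liver, as RPS25 with 1026 in the intestine-labelled library, 995 in salivary glands and 719 in liver, and FAU with 866, 766 and 577.

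RPL36A, whose only gene within the rule was at 0, was also named for gene894, with a highest FPKM of 40.8 in the intestine-labelled library against 23.8 in salivary glands and 37.9 in liver. RPL23, which has a member, was also named for the new gene Manis_javanica_newGene_8637, with a highest FPKM of 608. RPSA was also named for Manis_javanica_newGene_4109, whose NR entry is the transporter ABCA3. It has a listed length of 223 bases, and its FPKM was 10323 in the intestine-labelled library, 13625 in salivary glands and 3834 in liver, from 3774, 6563 and 2622 counts. Added to RPSA, a choice made after seeing the data, it gave log2 folds of 2.004 in salivary glands against liver, 1.17 in the intestine-labelled library against liver and 0.84 between salivary glands and the intestine-labelled library. Whether its reads come from RPSA was not tested.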

How the results depend on the processing

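No paired analysis was possible because each tissue has 1 library. No median log2 fold of the family changed sign in the alternatives run, and in none did lower genes or proteins past the threshold outnumber higher ones. Over these, the shares, the subunit ratios, the genes above an FPKM of 1 and the RPSA folds, 61 values stayed close to those reported and 56 moved. Where no construction shows it the cause was not tested. The counts of genes past 2-fold in either direction were 19, 24 and 2 for the intestine-labelled library against liver, salivary glands against liver and salivary glands against the intestine-labelled library, and 15, 20 and 0 for proteins with copies summed. In this order, scaling by library size gave 10 (6 higher, 4 lower), 38 (36 and 2) and 11 (11 and 0) genes, 6, 33 and 6 proteins and median log2 folds of 0.39, 0.92 and 0.54. A lower fold threshold (1.5-fold) gave 53, 54 and 7 of 87 genes, where 63.8%, 63.4% and 53.0% of all genes passed it, and a higher one (4-fold) gave 1, 3 and 1, where 24.6%, 23.7% and 15.8% did. The new gene like RPL21, which passed the count minimum only through salivary glands, was among the genes past 4-fold in each comparison. It was the only such gene in both comparisons with the intestine-labelled library. Against liver it had 1 count there against 0, which shows no difference. For salivary glands against the intestine-labelled library, neither of the 2 genes past 2-fold held in every setting: the new gene like RPL21 was the 1 gene left with median-of-ratios scaling, a pseudocount of 5 or the whole counting interval past the threshold, and the RPS27L gene was the 1 left with a mean count of at least 100 or new genes left out, and 1 protein passed with the leading copy alone or upper quartile scaling. Shares of counts, in the order intestine-labelled, salivary and liver, were 6.22%, 6.81% and 3.12% without the 10 most abundant genes, 3.60%, 5.31% and 2.70% without the mitochondrial genome, 3.57%, 5.64% and 2.69% without new genes and 3.74%, 5.57% and 2.78% with members chosen by Swiss-Prot. Shares of FPKM under the same settings were 21.4%, 22.0% and 11.2%, then 12.0%, 13.8% and 8.91%, then 11.4%, 16.5% and 8.09%, then 13.4%, 16.2% and 9.05%, and with TPM computed from counts and lengths 8.95%, 13.5% and 7.41%. Liver had the lowest share under each of these settings. The ratio of 40S to 60S FPKM was 1.499, 1.33 and 1.37 as a ratio of medians, above 1 where that of sums was below 1, and 0.859, 0.908 and 0.865 with paralogs kept. Depth limits mainly the paralogs and minor copies with few counts.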
